A study of Mus musculus with 2 samples.

Results

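Chromatin accessibility was described at 9 integrin genes that serve keratinocyte migration and focal adhesions: Itgb1, Itga2, Itga3, Itga5, Itga9, Itgav, Itgb5, Itgb6 and Itgb8. A peak belonged to a gene if it overlapped the gene, or if the gene was the nearest protein-coding gene within 50 kb. This gave 102 peaks of the 84591 nuclear peaks in the deposited table, between 3 peaks for Itga9 and 22 for Itgb5. The data are ATAC-seq, in which a transposase cuts into open DNA, of sorted basal epidermal cells of mouse skin from K14 lineage tracing. Per the labels, 50000 cells per library were gated as α6High, CD34-, Lrig1- and positive for the YFP, GFP and RFP reporters. The study compared 1 library of genotype WT, called control here, with 1 library labelled as basal lineage ablation. K14 is the basal keratin whose tracing marked the cells; the sources used here do not give the allele or agent that removed cells, the time since then, the age of the mice or the number of animals per library. The ablation column of the table is named Exp, and it was matched to the ablation sample because the other column carries the control label. That control column bears the number 2, whereas its sample is titled with 1.

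Integrins are receptors of an α and a β subunit that span the membrane. Outside the cell they bind matrix, and inside they are coupled to actin by talin and kindlin at focal adhesions. The β subunit encoded by Itgb1 pairs with those of Itga2 (collagen), Itga3 (laminin), Itga5 (fibronectin) and Itga9 (tenascin-C), while the α subunit of Itgav pairs with those of Itgb5 (vitronectin), Itgb6 and Itgb8, the last pair being activators of latent TGF-β. In skin, the fibronectin receptor and the Itgav-Itgb6 receptor are known as receptors of the migrating wound edge, whereas the collagen and laminin receptors are already present in resting basal cells.

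The libraries had 17056996 reads (control) and 12463908 reads (ablation) in nuclear peaks, and the mitochondrial genome took a further 7.31% and 31.2% of all reads in peaks. With 1 library per group there was no spread between animals and no test. A peak was called changed at a 2-fold difference of size, and each interval is a 95% interval for counting error only, in which PCR copies are counted as if independent. Values are normalized reads as deposited, where 1 read is worth 0.706 in control and 0.907 in ablation. Log2 ratios are of ablation to control with a pseudocount of 1, and fold values of single peaks carry no pseudocount. Across the 76147 peaks with enough signal to be tested, the median log2 ratio was 0.20 in the lowest decile of signal and -0.18 in the highest. Of the basal keratinocyte markers, 7 of 7 had tested peaks, with a summed signal of 14613 in control and 13927 in ablation. The number of cells with an open site and the openness per cell cannot be told apart in such bulk libraries.

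Each RefSeq gene start of the 9 genes is described first by its sequence, since the promoters differ in what they hold and in whether a peak was listed there. The 6 stretches below are the 250 bases before a gene start in build GRCm38.p6, which is the assembly behind mm10, read 5′ to 3′ on the gene's strand. They were chosen to show the promoter with the highest ratio (Itgb8), strong promoters with nearly equal values (Itgb1 and Itga3), the promoter of the gene with called peaks elsewhere (Itga5), and the start of Itgb6 with a listed peak beside the start without one. Capitals mark matches to the searched motifs.
Itgb8, chr12:119238277-119238526, minus strand: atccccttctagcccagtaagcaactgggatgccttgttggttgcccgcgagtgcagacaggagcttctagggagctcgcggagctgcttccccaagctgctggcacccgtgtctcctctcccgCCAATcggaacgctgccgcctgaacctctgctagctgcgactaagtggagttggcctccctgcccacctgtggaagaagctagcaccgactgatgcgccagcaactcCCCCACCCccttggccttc
Itgb1, chr8:128685404-128685653, plus strand: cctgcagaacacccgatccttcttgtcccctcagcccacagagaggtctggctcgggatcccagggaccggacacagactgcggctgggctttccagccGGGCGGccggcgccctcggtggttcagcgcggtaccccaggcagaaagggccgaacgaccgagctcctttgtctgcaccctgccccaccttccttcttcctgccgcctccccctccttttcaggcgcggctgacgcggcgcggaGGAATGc
Itga3, chr11:95076715-95076964, minus strand: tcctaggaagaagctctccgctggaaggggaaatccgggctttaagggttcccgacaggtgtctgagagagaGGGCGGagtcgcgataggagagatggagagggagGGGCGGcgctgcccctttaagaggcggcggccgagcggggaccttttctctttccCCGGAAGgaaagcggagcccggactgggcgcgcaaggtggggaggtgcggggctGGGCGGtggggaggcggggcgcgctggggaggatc
Itga5, chr15:103366792-103367041, minus strand: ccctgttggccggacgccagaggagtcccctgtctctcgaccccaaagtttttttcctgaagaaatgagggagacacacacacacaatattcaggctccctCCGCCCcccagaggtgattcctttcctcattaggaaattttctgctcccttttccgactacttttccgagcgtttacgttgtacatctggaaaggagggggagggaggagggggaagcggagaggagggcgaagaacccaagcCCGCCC
Itgb6 upstream start, chr2:60722604-60722853, minus strand: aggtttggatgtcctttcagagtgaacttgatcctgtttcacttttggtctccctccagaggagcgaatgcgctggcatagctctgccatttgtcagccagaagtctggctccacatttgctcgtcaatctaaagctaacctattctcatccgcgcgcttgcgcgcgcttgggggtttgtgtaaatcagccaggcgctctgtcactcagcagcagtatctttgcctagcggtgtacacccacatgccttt
Itgb6 internal start, chr2:60673694-60673943, minus strand: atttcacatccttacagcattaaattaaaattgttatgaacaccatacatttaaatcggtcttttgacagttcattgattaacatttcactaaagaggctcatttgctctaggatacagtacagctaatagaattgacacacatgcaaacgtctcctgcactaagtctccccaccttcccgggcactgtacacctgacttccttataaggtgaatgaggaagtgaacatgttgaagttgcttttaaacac

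The motifs were searched on both strands in windows from 250 bases before to 50 after the start: the GC box GGGCGG, bound by SP and KLF factors, the KLF motif CCCCACCC, the ETS motif CCGGAAG, the CCAAT box, the TEAD motif GGAATG, the AP-1 motif TGANTCA, the CRE TGACGTCA and the TATA box TATAAA, besides longer NF-kB and p53 family motifs. The GC box matched in 7 of the 11 windows of these genes, against 35.7% of all 32851 RefSeq windows. In the stretches above it stands 3 times in Itga3, 2 times in Itga5 and 1 time in Itgb1. The Itgb8 stretch holds no GC box but a CCAAT box and a CCCCACCC, found in 37.4% and 9.99% of all windows, and the ETS motif matched 1 window, that of Itga3 shown above, against 8.86%. GGAATG matched 1 window, that of Itgb1, where it begins 7 bases before the start, and 14.7% of all windows hold it. TGANTCA matched 2 windows, of Itga9 and of the inner start of Itga3, in both after the start, against 7.81% of all windows. Neither Itgb6 stretch holds any of the motifs, and the internal one is 38% G and C where the median of all RefSeq promoters is 52.4%. No window held the TATA box, CRE, NF-kB or p53 family letters, which 13.6%, 1.79%, 0.155% and 0.712% of all windows hold. These are matches of letters in a short window and not binding sites.

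Most integrin peaks differed little between the libraries. Of the 102 peaks, 96 passed the signal filter, a mean of both libraries of at least 13.96 normalized reads. Of these, 2 had an ablation signal at least 2-fold above control and 0 were at least 2-fold lower. Both called peaks belong to Itga5. In the background, 4.48% of all tested peaks were at least 2-fold higher and 1.88% at least 2-fold lower. The median log2 ratio of the 96 peaks was -0.11, beside -0.01 over all tested peaks, with 38 of them above 0 (39.6%) and 58 below, where 48.7% of all tested peaks were above 0. At 1.5-fold, 6 integrin peaks were higher and 6 lower, where 13% and 7.47% of all tested peaks were. A share of 87.5% lay within 1.5-fold, beside 79.5% of all tested peaks. With counting error alone considered, 8 peaks had an interval wholly above 1, 16 wholly below and 72 including 1, where 15.0% of all tested peaks lay wholly above and 18.2% wholly below. The summed signal of the 96 peaks was 17048 in control and 15465 in ablation, a ratio of 0.907 (0.889 to 0.925).

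**Figure D1:**
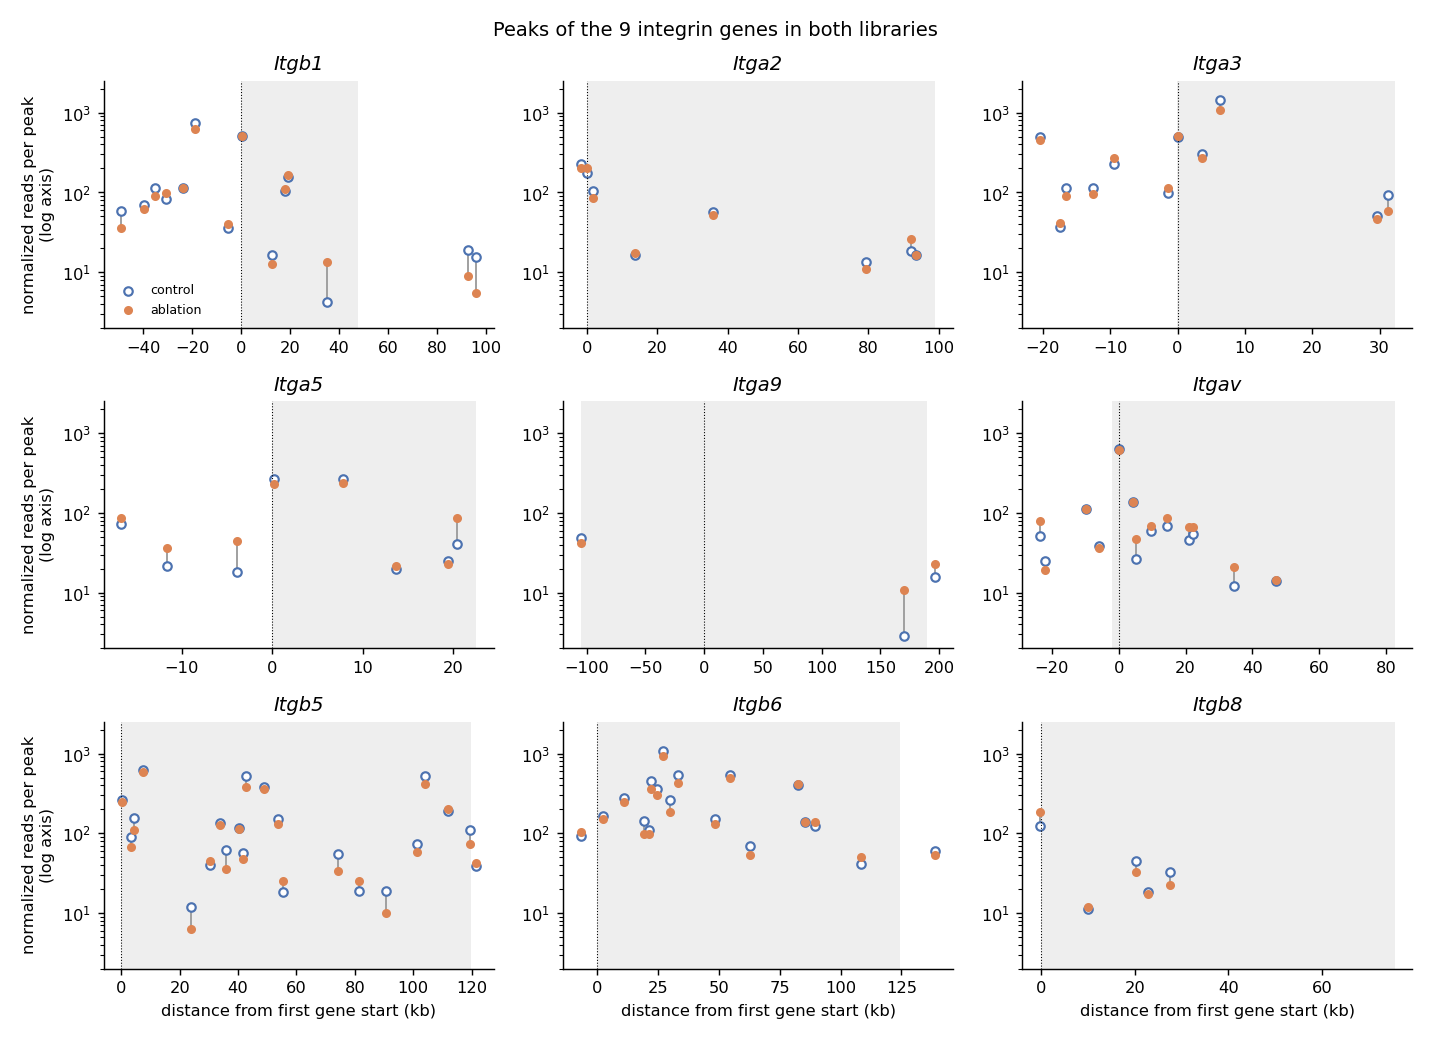
Normalized reads (vertical axis, log scale) of all 102 peaks against the distance of the peak's midpoint from the gene start (horizontal axis, kb). The start is the gene's most upstream one among the RefSeq promoter windows, which for Itga9 lies inside the annotated gene. Open circles are control and filled circles ablation, with a line joining both values of a peak and grey shading over the annotated gene. Most pairs of circles overlap. The open gaps of weak peaks near Itga5 and the higher ablation value at the start of Itgb8 stand out. Itga9 shows no peak at 0, but it does show a peak over the upstream end of its annotated gene, 105.1 kb before 0.

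The ratios also varied with the strength of a peak. The integrin peaks were stronger than the table at large, with a median mean signal of 92.6 normalized reads beside 66.1. Among the 14 integrin peaks at or above the 90th percentile of signal, 2 had log2 ratios above 0 and 12 below, or 14.3% above, and the share above 0 over all peaks of that strength was 14.4%. Their median log2 ratio was -0.16, beside -0.18 for all peaks of that strength. Among the 54 integrin peaks at or above the median signal, 29.6% lay above 0, beside 38.6% of all such peaks. Of the 42 weaker ones 52.4% lay above 0, beside 58.8%.

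**Figure D2:**
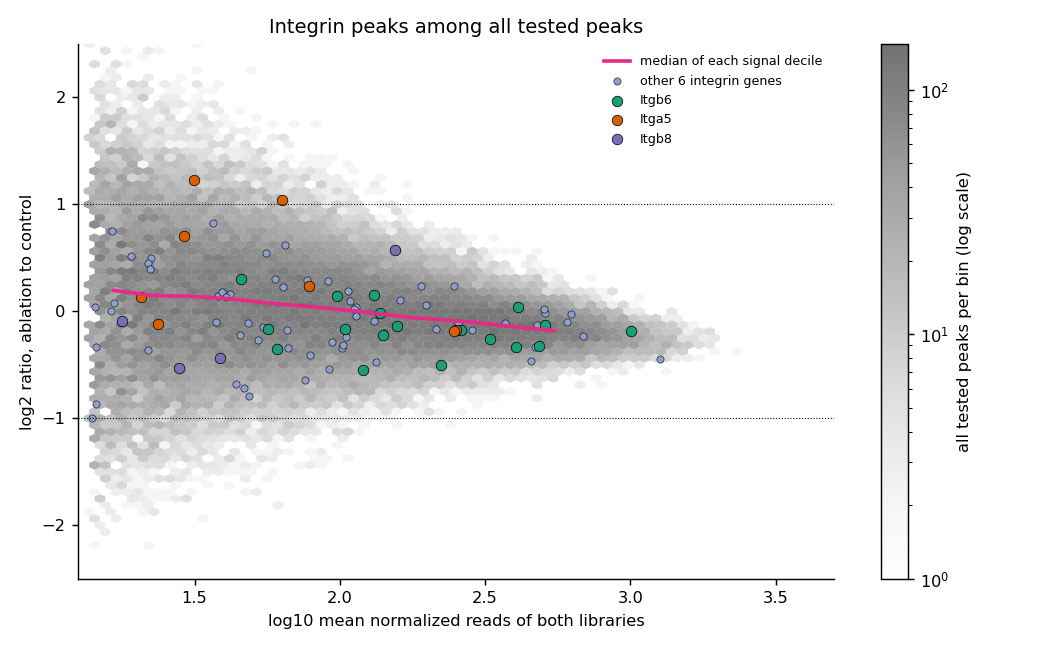
Log2 ratio of ablation to control (vertical axis) against the log10 mean normalized reads of both libraries (horizontal axis) for the tested peaks of the table (grey hexagons, darker for more peaks), with the median of each signal decile as a line and the integrin peaks as points. The 2 Itga5 points above the dotted 2-fold line lie among weak peaks, and the strong Itgb6 points follow the falling line.

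Summed over its tested peaks, no gene of the 9 reached 2-fold; 1.19% of the 16272 genes with a tested peak were at least 2-fold higher and 0.418% at least 2-fold lower. Log2 ratios ran from -0.22 for Itgb5 to 0.23 for Itgb8, where the 5th and 95th percentiles of all genes were -0.39 and 0.56. The median over the 9 genes was -0.02, beside -0.07 over all genes, with 4 of the 9 above 0 and 5 below, where 38.4% of all genes were above 0. An interval wholly below 1 was found for Itgb1, Itga3, Itgb5 and Itgb6 and an interval wholly above 1 for Itgav. The background shares were 32.1% and 14.2% of genes. With the trend by signal removed by a loess correction, these genes had log2 ratios of -0.0007, -0.06, -0.14, -0.06 and 0.16 in that order. The median of all genes was then 0.01. Division by the table total, with mitochondrial reads included, shifted all genes alike by about -0.34 and left 0 of the 9 genes above 0, so directions are given on the deposited scale and beside the all-gene median.

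Per kb of peak, the Itga3 peaks had the highest signal, at 517 normalized reads in control and 447 in ablation. Those of Itgb6 followed (363 and 318), then those of Itgb5 (297 and 254) and Itgb1 (204 and 190). Itga2 (176 and 174), Itgav (175 and 189) and Itga5 (151 and 159) formed a close group, whose order differed between the libraries. The lowest values were those of Itgb8 (79.4 and 93.2) and Itga9 (52.3 and 52.5).

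**Figure D3:**
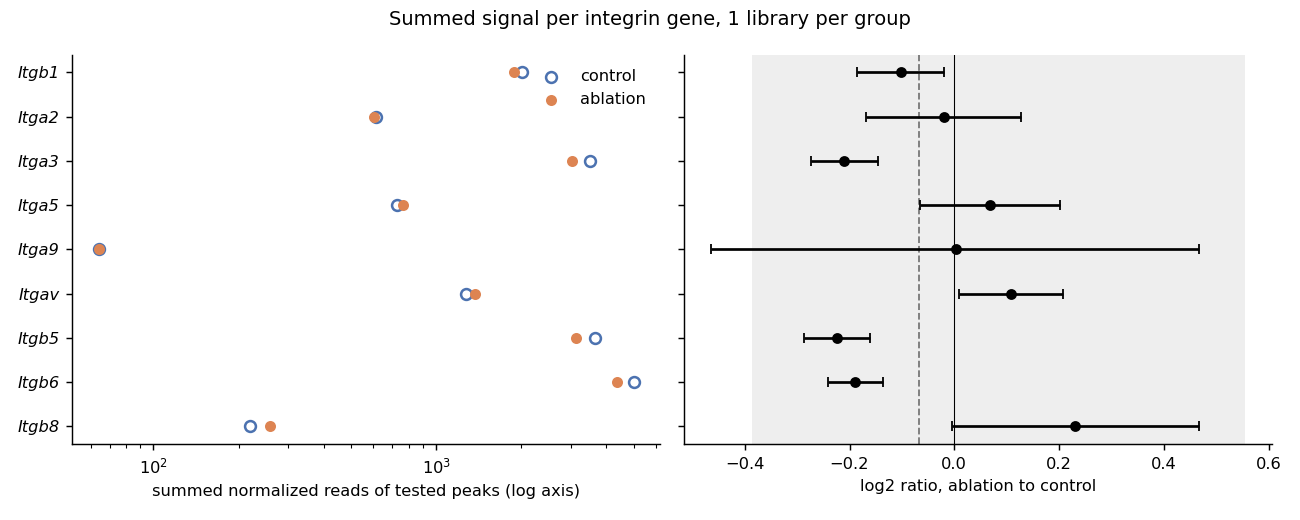
Left, summed normalized reads of the tested peaks of each gene (log axis) in control (open) and ablation (filled); right, their log2 ratio with 95% counting intervals, the median of all genes as a dashed line and the 5th to 95th percentile of all genes shaded. All 9 genes lie inside the shaded range, with Itgb8 furthest right and Itgb5 furthest left.

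Itgb1 encodes the β subunit shared by the collagen, laminin, fibronectin and tenascin receptors of this group. The gene lies on chromosome 8 at 128685654 to 128733579. Its promoter peak, at 128685171 to 128686555 over the sequence shown above, had 510 normalized reads in control and 505 in ablation, a ratio of 0.990 (0.885 to 1.11). The strongest peak of the gene lay 18.7 kb upstream, with 740 and 631 normalized reads, a ratio of 0.854 (0.774 to 0.940). The furthest upstream peak, 49.0 kb before the start, had 58.6 and 35.4 and the other interval below 1, at a ratio of 0.604 (0.402 to 0.894). The highest ratio of a tested peak was 1.22 (0.930 to 1.60), 30.9 kb upstream, from 81.9 to 99.8. The lowest was in a broad weak peak 43.4 kb past the gene, with 19.1 and 9.07 (ratio 0.476, 0.206 to 1.01). Its log2 ratio of -0.99 stops just short of 2-fold lower. This peak belongs to a run of the table in which 16.1% of tested peaks were at least 2-fold lower. Summed over 12 peaks, the log2 ratio was -0.10, which turned to 0.020 when peaks overlapping the gene alone were used and to 0.026 within 10 kb.

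Itga2 encodes the collagen-binding α subunit and lies on chromosome 13 at 114833081 to 114932100. Its promoter peak at 114931699 to 114932409 had a control value of 174 normalized reads and an ablation value of 205, the second highest promoter ratio of the group, 1.18, with an interval that includes 1 (0.978 to 1.41). The neighbouring peak 1.7 kb upstream, the strongest of the gene, had 227 and 202 (0.893, 0.749 to 1.06). The peak 1.7 kb inside the gene had 103 and 84.4 and the lowest log2 ratio of the gene, -0.29. The highest, 0.50, came from a weak peak 92.2 kb into the gene with 26 and 29 reads. The promoter thus stood higher in ablation while both its neighbours stood lower, all 3 with intervals that include 1.

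Itga3 encodes the α subunit of the laminin-332 receptor of basal cells and lies on chromosome 11 at 95044475 to 95076844. It held the strongest peak of the whole group, in the gene body at 95069968 to 95070894, 520 bp from the promoter window of an inner RefSeq start. That peak had 1453 normalized reads in control and 1068 in ablation, a ratio of 0.735 (0.684 to 0.790) from 2059 and 1178 reads. The promoter peak at 95076203 to 95077139, over the GC-rich stretch shown above, had 501 and 509, a ratio of 1.02 (0.907 to 1.14). The lowest ratio was in a peak near the end of the gene, 31.2 kb from the start, with 92.4 and 59.0 (0.638, 0.466 to 0.865). That peak belongs to a run of the table in which 16.1% of tested peaks were at least 2-fold lower. The highest ratio was 9.4 kb upstream, with 227 and 268 (1.18, lower bound 1.00). The other 7 peaks had intervals that include 1. The log2 ratio of the sum was -0.21, and the strongest peak alone made up 38.8% of the gene's mean signal.

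Itga5, on chromosome 15 at 103344286 to 103366791, encodes the α subunit of the fibronectin receptor and was the gene with called peaks. A peak 3.9 kb upstream, at 103370554 to 103370801, had 18.3 normalized reads in control and 44.4 in ablation, a ratio of 2.42 (1.48 to 4.06) from 26 and 49 reads. A peak in the gene body, 20.4 kb from the start at 103346053 to 103346713, had 40.9 and 85.3, a ratio of 2.08 (1.49 to 2.94) from 58 and 94 reads. By mean signal they stood at the 26.3rd and 48.5th percentiles of tested peaks. The upstream peak belongs to a run of the table in which 31.2% of tested peaks were at least 2-fold higher, and the gene body peak to one in which 2.44% were.

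A further upstream Itga5 peak, 11.7 kb before the start, had 21.9 and 36.3 normalized reads (1.66, 1.01 to 2.74). The strong peaks of the gene differed in the other direction, with intervals that include 1. The promoter peak at 103366047 to 103367134 had 263 and 231 (0.879, 0.746 to 1.03) and the lowest log2 ratio of the gene, -0.19. The strongest peak by mean signal, 7.8 kb into the gene, had 267 and 236 (0.884, 0.752 to 1.04). Of the 6 weaker peaks, 5 thus stood higher in ablation, and the exception, 19.4 kb into the gene, had 24.7 and 22.7. Over all tested peaks, 58.8% of those below the median signal of 66.1 lay above 0, and 38.6% of those at or above it. Weaker peaks thus stood higher more often in the whole table too. The Itga5 peak 16.7 kb upstream, with a mean of 78.6, is above that median. Over all 8 peaks the summed log2 ratio was 0.07, and the interval of the ratio, 0.956 to 1.15, included 1. Itga5 is also expressed by fibroblasts and endothelial cells. The sort gated on the reporters of K14 tracing, and how many fibroblasts or endothelial cells remained after it was not measured here. Of 8 fibroblast markers 6 had a tested peak, with a summed signal of 661 in control and 746 in ablation; their genes ranged from 8.47 to 363 in control and from 22.7 to 358 in ablation, and Col1a2 and Lum had no tested peak. Of 7 endothelial markers 5 had one, with sums of 3799 and 3878 and genes ranging from 29.6 to 2645 and from 41.7 to 2531; Cdh5 and Emcn had none. The part of such cells in the Itga5 values was not tested.

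Itga9, on chromosome 9 at 118606709 to 118901003, encodes the α subunit of a tenascin-C receptor and had the fewest listed peaks of the group, 3 over 294 kb. No listed peak overlapped the RefSeq promoter window at 118711442 to 118711741, which lies inside the annotated gene. By that window Itga9 has no promoter peak in the comparisons below. The nearest listed peak, 104329 bp away, covered the upstream end of the annotated gene at 118606709 and was counted as a gene body peak. That peak, at 118606168 to 118607113, had 48.7 normalized reads in control and 41.7 in ablation (0.857, 0.577 to 1.26). A peak 7.2 kb past the gene had 15.5 and 22.7 (1.46, 0.790 to 2.72). The summed signal was 64.2 and 64.4, too few reads (91 and 71) to show differences smaller than 1.38-fold, the upper bound of its interval. Since the table is a selection of peaks, a start without a listed peak is not shown to be closed.

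Itgav encodes the α subunit of the vitronectin receptor family and lies on chromosome 2 at 83722303 to 83806917. Its promoter peak at 83723917 to 83725301, the strongest of the gene, had 630 normalized reads in control and 620 in ablation (0.984, 0.890 to 1.09). Of its 13 tested peaks 9 had log2 ratios above 0, the highest number in the group. A short peak 5.1 kb into the gene had 26.1 and 47.2 and the highest log2 ratio, 0.83 (ratio 1.81, 1.16 to 2.83). A peak 23.5 kb upstream had 50.8 and 78.9 (1.55, 1.12 to 2.15) and a peak 21.1 kb into the gene 45.2 and 66.2 (1.47, 1.03 to 2.08). The lowest log2 ratio was -0.36, in a weak peak 21.9 kb upstream with 24.7 and 19.05. On the deposited scale the gene's sum was higher in ablation, at a ratio of 1.08 (1.01 to 1.16). Its log2 ratio was 0.18 above the all-gene median, and -0.23 when divided by the table total.

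Itgb5, which encodes the partner of the Itgav product in vitronectin binding, lies on chromosome 16 at 33829665 to 33949338 and had the most peaks, 22, with 21 tested. Of these 16 had log2 ratios below 0, and 6 had intervals wholly below 1 with 0 wholly above. The promoter peak at 33829255 to 33830541 had 265 normalized reads in control and 245 in ablation (0.925, 0.788 to 1.09). The strongest peak, 7.3 kb into the gene, had 626 and 584 (0.933, 0.842 to 1.03). Peaks 42.6 kb and 104.1 kb into the gene were nearly as strong, and they had 529 and 383 (0.724, 0.641 to 0.817) and 522 and 415 (0.795, 0.706 to 0.895).

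Weak Itgb5 peaks held both extremes of the gene. The lowest log2 ratio, -0.87, was in a peak 90.7 kb into the gene with 27 and 11 reads, and the highest, 0.45, in a peak at 55.5 kb with 26 and 28 reads. A peak at 36 kb had 62.1 and 35.4 normalized reads (0.570, 0.380 to 0.839). The peaks at 90.7 and 36 kb belong to a run of the table with 16.1% of tested peaks at least 2-fold lower. The peak at 55.5 kb belongs to the run with 31.2% at least 2-fold higher. The log2 ratio of the sum, -0.22, was the lowest of the group, at the 20.6th percentile of all genes.

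Itgb6 encodes an epithelial β subunit that is induced at wound edges and activates TGF-β with the Itgav product. It lies on chromosome 2 at 60598292 to 60722603 and had the highest summed signal, 4990 normalized reads in control and 4378 in ablation, over 18 tested peaks. No listed peak overlapped the upstream start, whose sequence is shown above; the nearest, at 60719805 to 60720605, lay 1949 bp from that window and had 165 and 150 (0.906, 0.738 to 1.11). The internal start did have a listed peak, centred 48.5 kb into the gene at 60673398 to 60674878, with 151 and 130 (0.859, 0.690 to 1.07). The strongest peak, in the gene body at 60694354 to 60696298, had 1070 and 943 (0.882, 0.814 to 0.955).

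All 6 Itgb6 peaks with an interval wholly below 1 fell in a run of 7 peaks from 60689002 to 60703637, 14.6 kb in length, a stretch singled out after its values were seen. Each of the 7 was lower in ablation, and their sum was 2935 in control and 2413 in ablation, a ratio of 0.822. The stretch was bounded by peaks with low intervals. Its ratio and the gap to the other peaks therefore follow in part from that choice, and no interval is given. The lowest was at 19.2 kb from the upstream start, with 143 and 98.0 normalized reads (0.684, 0.536 to 0.868), and the peak at 30.1 kb had 263 and 185 (0.705, 0.591 to 0.838). Low ratios were also found outside it, with a log2 ratio of -0.35 at 62.7 kb. The other 11 peaks summed to 2055 and 1965, a ratio of 0.956, with 4 above 0 and 7 below. The highest log2 ratio was 0.30, at 108.6 kb, with 40.9 and 50.8. With the signal trend removed by a loess correction, the log2 ratio of the whole gene was -0.06 instead of -0.19. The log2 ratios of the 7 peaks then ran from -0.54 to 0.05, the latter in the strongest peak.

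Itgb8 encodes the other TGF-β-activating partner of the Itgav product and lies on chromosome 12 at 119162803 to 119238276. Its promoter peak at 119237824 to 119239078, over the first sequence shown, had 124 normalized reads in control and 186 in ablation, a ratio of 1.497 (1.22 to 1.84) from 176 and 205 reads. This was the highest ratio among the 8 promoter peaks of the group, and it was above 1 on each scaling, with log2 ratios between 0.24 and 0.70 around 0.58. With the pseudocount it was 1.49-fold, so 0 of the 8 promoter peaks were at least 1.5-fold higher or lower, where 4.63% and 1.60% of all tested promoter peaks were. Within the gene, the 3 tested peaks were lower in ablation, each with an interval that includes 1. They had 33.2 and 22.7, 18.3 and 17.2, and 44.5 and 32.7 normalized reads, at 27.5, 22.8 and 20.2 kb from the start. The ratio of the gene's sum was 1.17, with an interval that includes 1 (0.996 to 1.38), and the promoter peak made up 64.8% of the gene's mean signal. The log2 ratio of the sum, 0.23, was -0.26 as the median of its peaks and -0.40 from peaks away from gene ends.

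Promoter peaks and other peaks of the same gene share the scale of each library, so a scaling factor per library leaves their difference nearly as it is, while a correction by signal does not. In Itgb8 the log2 ratio of the promoter peak was 0.98 above that of the gene's other tested peaks (0.47 to 1.501), with 124 and 186 normalized reads at the promoter against 96.0 and 72.6 in the other 3 peaks. That difference, the widest of the 8 genes, stood at the 98.5th percentile of the 7430 genes with both kinds of peak. The 5th and 95th percentiles of those genes were -0.78 and 0.61. The rank takes no account of read number, and the other 3 Itgb8 peaks held 136 and 80 reads (0.759, 0.566 to 1.004). Itga2 (0.37, 0.05 to 0.69) and Itga3 (0.27, 0.10 to 0.45) also had promoters above their other peaks, at the 87.5th and 82.2nd percentiles. Itga5 (-0.38, -0.67 to -0.09) and Itgav (-0.25, -0.45 to -0.05) had promoters below them, at the 18.6th and 28.6th percentiles. With the loess correction for signal, the difference was -0.01 for Itgav and 1.16 for Itgb8, at the 98.7th percentile of genes. For Itgb1 (0.12), Itgb5 (0.12) and Itgb6 (-0.03) the interval included 0. Over the 8 genes the median difference was 0.12, beside -0.05 over all genes. At 2-fold, 0 of the 8 promoter peaks were called, where 1.27% of all tested promoter peaks were higher and 0.235% lower. Their median log2 ratio was -0.02, beside -0.08.

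**Figure D4:**
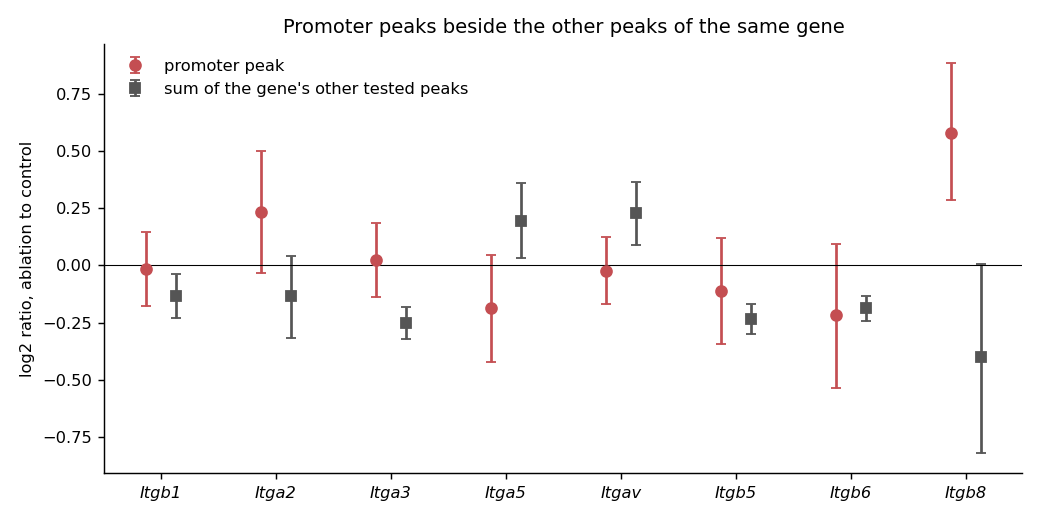
Log2 ratio of ablation to control (vertical axis) of the promoter peak (circles) and of the summed other tested peaks (squares) of each gene with both, with 95% counting intervals. In Itgb8 the circle lies at 0.58 and the square at -0.40, the widest gap, while in Itga5 and Itgav the square lies above the circle.

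By place, the 62 gene body peaks outside promoters had a median log2 ratio of -0.13 with 1 at least 2-fold higher (1.61%) and 0 lower, where all such peaks had a median of 0.01, and 4.46% were higher and 2.04% lower. The 26 peaks outside the genes had a median of 0.03 with 1 at least 2-fold higher and 0 lower, where all such peaks had a median of 0.01, and 5.74% were higher and 2.32% lower. The deposited table lists its peaks in 3 successive runs, whose rule is not stated, with median log2 ratios of 0.71, -0.44 and -0.03 over their tested peaks. Of the tested integrin peaks 3 were in the first run, 10 in the second and 83 in the third. Those in the third had a median log2 ratio of -0.11. In the first run 3 were above 0 and 0 below, where 90.8% of all tested peaks were above. In the second, 4 were above 0 and 6 below, where 18.4% of all tested peaks were above and 16.1% at least 2-fold lower.

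The 6 peaks under the filter had at most 19 reads in control except 1 with 22, and they are given without a call. Near Itgb1, a gene body peak had 4.23 and 13.6 normalized reads (6 and 15 reads) and a downstream peak 15.5 and 5.44 (22 and 6 reads). In Itga9, a gene body peak had 2.82 and 10.9 (4 and 12 reads). The others, in Itga2, Itgb5 and Itgb8, had ratios of 0.812, 0.529 and 1.04 with intervals that include 1. At the edge of the 50 kb window, the furthest included peaks, 48.6 and 47.6 kb from Itgb1, had log2 ratios of -0.71 and -1.36. The nearest peaks left out, 62.8 kb from Itgb8 and 65.7 kb from Itgb1, had 0.64 and 0.40.

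The 14 other integrin genes with a tested peak spanned a wider range of log2 ratios than the group of 9, from -0.36 to 0.84. At the top of that range, Itga7 had 183 and 255 reads, a ratio of 1.78 (1.48 to 2.18). Itga8 came next with only 44 and 51 reads (1.47, 0.976 to 2.28). At the bottom, Itgam had 646 and 392 reads (0.780, 0.686 to 0.886). Of 17 integrins outside the group 14 had a tested peak, 8 above 0 and 6 below, and of their 79 peaks 3 were at least 2-fold higher and 2 at least 2-fold lower, where 4.48% and 1.88% of all tested peaks were. The 2 lower peaks were both among the 18 of Itga6, and the higher ones were 1 each in Itga11, Itgb3 and Itga7. Itga6 and Itgb4 are the hemidesmosome pair that anchors basal cells and whose α subunit was the gate of the sort. They stood at -0.27 (3144 and 2610 normalized reads) and -0.13 (1307 and 1196). The ratios were 0.830 (0.792 to 0.870) for Itga6 and 0.915 (0.852 to 0.983) for Itgb4. The collagen-binding Itga1 was at 0.17 and Itga11 at 0.48. Itga7, a laminin receptor subunit of muscle, had the highest value, 0.84, with 129 and 231 normalized reads, followed by Itga8 at 0.56 from 1 peak, and Itga10 was at -0.26. Among 7 leukocyte and platelet integrins with a tested peak, Itgb7 (0.24) and Itgae (0.11) were highest and Itgam (-0.36) and Itga2b (-0.19) lowest, while Itgal and Itgax had no tested peak.

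The lists of integrin partners are read against the 38.4% of all genes above 0. Of 21 ligand genes 19 had a tested peak, 8 above 0 and 11 below, with a median log2 ratio of -0.02. Ccn2 (0.85) and Spp1 (0.69), each from 1 peak, were highest, and Thbs1, a matrix protein that binds several integrins, was lowest at -0.48 with 2143 and 1539 normalized reads and 2 of 9 peaks at least 2-fold lower, followed by Lamb1 at -0.17. Of 24 activators and adaptors, which link integrins to actin, 6 were above 0 and 18 below, with a median of -0.09. Parvb was at 1.31 from 1 weak peak, and Actn1, which crosslinks actin, at 0.24 with 4 of 23 peaks at least 2-fold higher. The integrin-linked kinase gene Ilk (-0.21) and its partner Lims1 (-0.20) were lowest. In that list 11 of 312 peaks (3.53%) were at least 2-fold higher and 5 (1.60%) lower, near the background.

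Signalling genes downstream of integrins had a median of -0.06 over 21 genes, 8 above 0 and 13 below. The kinase gene Fyn was highest at 0.55 (355 and 519 normalized reads), followed by Cdc42 at 0.10, and the small GTPase genes Rap1a (-0.23) and Rhoa (-0.22) were lowest. Of 12 membrane partners and trafficking genes 1 was above 0 and 11 below, with a median of -0.12. Cd81 (0.08) and Cd9 (-0.06), both tetraspanins, were highest there, while Rab21, which traffics integrins, was at -0.39 and the tetraspanin Cd151, a partner of the laminin receptor, at -0.19. The 4 inactivators had a median of 0.00, from Itgb1bp1 at -0.18 and Sharpin at -0.01 to Krit1 at 0.02 and Dok1 at 0.18.

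**Figure D5:**
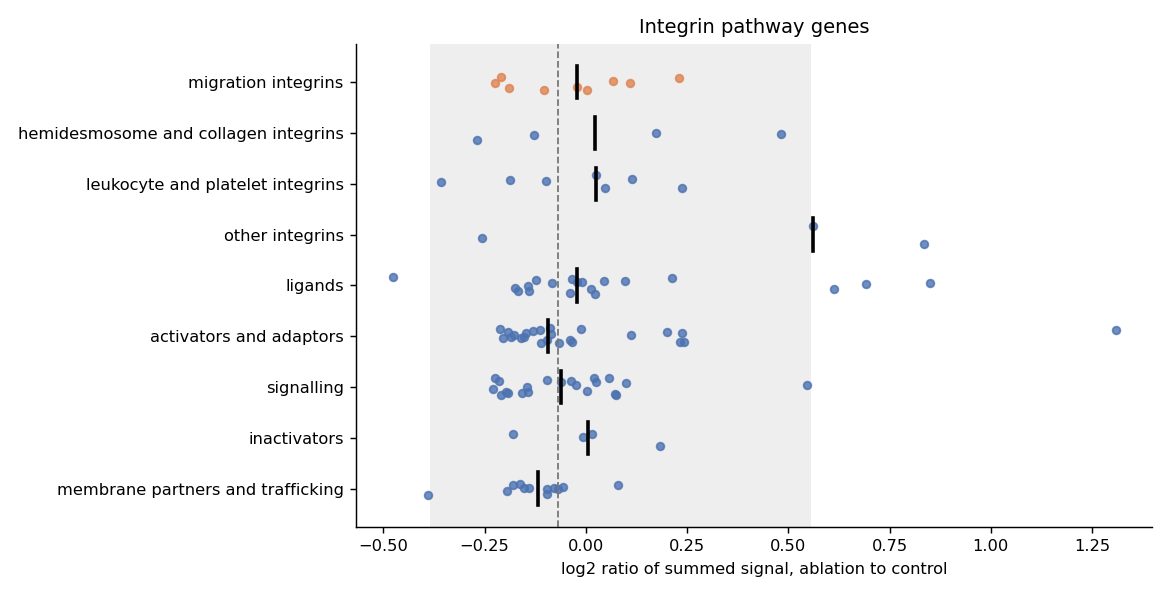
Log2 ratio of summed signal (horizontal axis) of each gene, 1 point per gene, in the migration integrins and 8 lists of related genes, with the median of each list as a bar, the median of all genes as a dashed line and the 5th to 95th percentile of all genes shaded. The 9 migration integrins lie between -0.22 and 0.23, inside the shaded range, and Parvb at 1.31 is the point furthest right.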

How the data were processed

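The authors deposited 1 table of normalized signal per peak. The build was mm10 and the tools were MACS2 2.1.0.20151222, HTSeq, Bowtie2 2.3.4.2, Trimmomatic and Picard, per the submitters' processing notes. Their roles and settings, the choice of peaks and the scaling are not given in the sources used. Each deposited signal value is a whole multiple, within 0.1 of a read, of 1 step per library (100% of values), so whole reads were recovered. A count test was not run on them, since 1 library per group leaves no spread.

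Exact repeats in 116411 rows were merged to 84594 peaks, and 3 mitochondrial peaks were left out. Coordinates are as deposited; whether starts count from 0 is not stated. Peaks with a mean under the 10th percentile (13.96) were not tested. Each peak was assigned to every RefSeq (GRCm38.p6) protein-coding gene it overlaps, else to the nearest within 50 kb; the gene table gives no exons, so exon and intron were not separated. A promoter peak overlaps a window of 250 bases before to 50 after a RefSeq start, and all 9 genes matched by symbol. Intervals are exact Clopper-Pearson intervals, or exact conditional odds ratio intervals for promoter against other peaks. The limit for a count of 0, taken as 3 reads, is 2.12 normalized reads in control and 2.72 in ablation.

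Members, lists and motifs were chosen with earlier results of these data known. Named peaks are, per gene, the promoter, strongest, highest and lowest tested peak and any past 2-fold; further peaks were named after their values were seen. Named list genes are the 2 highest and 2 lowest with at least 50 reads. Marker lists of basal, fibroblast, endothelial, Langerhans and myeloid, T cell, melanocyte and suprabasal cells were also fixed. The steps were tested on simulated reads. Columns left unused numbered 0. Intervals came from scipy 1.17.1, the loess fit from statsmodels 0.14.6 and figures from matplotlib 3.10.9, with tables handled in pandas 2.3.3 and numpy 2.4.6 under Python 3.11.15.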

Additional observations from a re-analysis of the deposited data

Results flagged for a closer look

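Of the ablation reads in peaks, 31.2% (31.2 to 31.3) lay on the mitochondrial genome, which is no part of the comparison. The control share was 7.31% (7.30 to 7.32), which is why the ablation value is listed here. Its part in the integrin values was not tested.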

How the results depend on the processing

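No paired analysis was possible because each group holds 1 library, and for the same reason no replicate could be left out. As reported, 2 integrin peaks passed 2-fold upward and 0 downward. The upward count was 1 with a pseudocount of 5, with the loess correction, with peaks overlapping the gene only and with the third run of the table only (a setting added after seeing the data), 4 without the filter and 0 with scaling by the table total. Over all tested peaks the upward share was 2.91%, 3.09%, 4.48%, 2.44%, 6.14% and 1.76% in that order. The 4.48% is that of the main setting and still includes peaks outside genes. Gene body peaks outside promoters had 4.46%. The downward count was 1 with a pseudocount of 0.5 and without the filter, 2 with loess and 5 with the table total, where the downward share of all tested peaks was 2.003%, 2.98%, 2.79% and 5.56%. At 1.5-fold there were 6 higher and 6 lower. The median log2 ratio of the peaks (-0.11) was -0.44 with the table total, -0.020 with the nuclear total and -0.070 with loess, and it reversed to 0.017 with centring on strong gene-end peaks. Relative to all tested peaks it was -0.10, and -0.069 with loess. The log2 ratio of the summed signal (-0.14) was -0.48, -0.050, -0.038 and -0.013 in the same order. The median over the 9 genes (-0.02) was -0.36 with the table total, 0.070 with the nuclear total, 0.11 with centring on gene-end peaks, -0.094 with the filter at the 25th percentile and with the third run, -0.10 with the median of a gene's peaks and -0.14 away from gene ends. Itgav (0.11) reversed to -0.23 with the table total, and Itgb1 (-0.10) to 0.025 with centring on gene-end peaks, 0.020 with peaks overlapping the gene only and 0.026 within 10 kb. Other genes changed sign too: Itgb8 (0.23) to -0.11 with the table total, -0.26 with the median of its peaks and -0.40 away from gene ends, Itga5 (0.07) to -0.27 with the table total and -0.04 with peaks overlapping the gene only, Itga2 (-0.02) to at most 0.11 in 4 settings, and Itga9 (0.00) to between -0.33 and -0.12 in 5, beside 0.52 away from gene ends. The difference between promoter and other peaks, whose alternatives were added after seeing the data, changed sign for Itgb1 (0.12), to -0.10 with peaks overlapping the gene only and within 10 kb. Scaling moves all peaks alike, by -0.34, 0.09 and 0.13 for the table total, nuclear total and gene-end peaks. The cause of the other changes was not tested. The called Itga5 peaks rest on 26 and 49 and on 58 and 94 reads.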

Other observations

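Markers of cell types outside the basal layer had these values. Suprabasal keratinocyte genes had 0 of 5 log2 ratios above 0 and a median of -0.34, from Sbsn (-0.39) and Krt10 (-0.38) to Krt1 (-0.19), with a summed signal of 6183 in control and 4855 in ablation. Langerhans and myeloid markers summed to 1826 and 1663, T cell markers to 2072 and 1818 over 2 genes, and melanocyte markers to 3307 and 3007. Few genes carried these sums: Epcam had 1037 and 953, Cd2 1874 and 1551, Pmel 1648 and 1481, and Mitf 1308 and 1192. Cd207 had 31.8 and 39.9, and Itgax, Cd3g, Cd3d, Trdc, Tyr and Kit had no tested peak. Log2 ratios above and below 0 numbered 3 and 3 in the myeloid list, 1 and 1 in the T cell list and 1 and 3 in the melanocyte list. The median log2 ratio was 0.46 over 6 fibroblast markers, with Prrx1 (0.69) the highest of those with at least 50 reads. That median includes Pdgfrb (9.88 and 22.7 normalized reads) and Twist2 (8.47 and 22.7), whose control values lie under the filter value of 13.96. The log2 ratio of the summed fibroblast signal was 0.18. Over 5 endothelial markers the median was 0.48, from Tek (-0.63) to Tie1 (1.23), and the log2 ratio of their summed signal was 0.03.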
